A study of Homo sapiens with 6 samples.

Results

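The 45 genes described here encode the SR proteins, the heterogeneous nuclear ribonucleoproteins (hnRNPs) and the kinases that phosphorylate SR proteins. They were taken by symbol from 38557 gene symbols in the deposited tables and comprise 14 SR proteins (SRSF1 to SRSF12, TRA2A and TRA2B), 25 hnRNPs (symbols that begin with HNRNP) and 6 SR kinases (CLK1 to CLK4, SRPK1 and SRPK2). Symbols of hnRNP pseudogenes were left out. The libraries were made from T-24 cells, an established line of human bladder cancer that grows as adherent epithelial cells, labelled as wild type in genotype. In one group, 3 libraries came from cells treated for 48 h with 1 µM CCT068127, a compound that inhibits CDK2 and CDK9. In the other, 3 libraries came from cells given DMSO, the vehicle, for 48 h. The labels describe the replicates as independent biological ones of this single line.

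SR proteins carry an RNA recognition motif and a domain rich in arginine and serine, bind exonic enhancers in pre-mRNA and mostly favour the inclusion of the exon they bind. Phosphorylation of that domain by SRPK kinases in the cytoplasm brings SR proteins into the nucleus, and CLK kinases there release them from nuclear speckles. The hnRNPs coat nascent transcripts and often act against SR proteins at the same exons. Many genes of both families hold a poison exon, a conserved exon with a premature stop codon, whose inclusion sends the transcript to nonsense-mediated decay and lets the protein limit its own level.

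Of the 45 genes, 40 had enough reads to be tested. HNRNPCL1, HNRNPCL2, HNRNPCL3, HNRNPCL4 and SRSF12 were at or below 0.43 TPM (a level corrected for transcript length and library size) in every library and did not enter the test. DMSO replicates 1 and 2 held 371044040 and 411097626 counts and the other 4 libraries between 1966742 and 5955296, so the shallow libraries, and CCT068127 replicate 2 most of all, set the precision. The 6 epithelial markers summed to 3677.02 to 4874.33 TPM in DMSO and 5281.06 to 6725.24 TPM in CCT068127, without overlap. Keratin genes made up nearly all of it, and KRT8 was at 807.42 to 936.83 TPM in DMSO and 1820.42 to 2399.46 TPM in CCT068127. EPCAM was at 2.67 to 5.71 TPM over the 6 libraries and CDH1 at or below 0.14 TPM, the 3 uroplakins at or below 1.83 TPM and KRT5 at or below 0.01 TPM. The summed level of 3 leukocyte markers was 5.09 to 9.31 TPM in DMSO and 40.58 to 43.66 TPM in CCT068127, of which CD68, a lysosomal protein, made up 40.06 to 43.3 TPM in CCT068127 and PTPRC, the pan-leukocyte marker, at most 0.52 TPM. The summed level of 4 fibroblast markers was 11.16 to 14.76 TPM in DMSO and 2.0 to 2.65 TPM in CCT068127, nearly all of the difference PDGFRB (10.59 to 13.73 and 1.38 to 1.95 TPM), while COL1A1 overlapped between the groups and DCN was at 0 TPM in every library. For 3 endothelial markers the sums were 4.66 to 5.67 TPM in DMSO and 2.26 to 5.09 TPM in CCT068127. The summed level of 5 urothelial markers was 78.99 to 101.47 TPM in DMSO and 13.73 to 18.67 TPM in CCT068127, nearly all of it GATA3. The part of these differences in the values below was not tested. Fewer cells of a kind and less RNA per cell cannot be told apart in such libraries. Strandedness is not given, and 11 of the 40 tested genes overlap a gene of the tables on the opposite strand, so their reads may be shared: SRSF2, SRSF9, HNRNPA2B1, HNRNPAB, HNRNPH3, HNRNPU, HNRNPUL1, CLK2, CLK3, SRPK1 and SRPK2.

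Under CCT068127, 12 of the 40 tested genes rose and 17 fell, and 11 did not pass an adjusted p of 0.05, in edgeR's quasi-likelihood test on counts scaled by TMM (a scaling that takes most genes as the reference). Across all 13597 genes tested, 31.9% rose, 32.8% fell and 64.7% were called in either direction, so the share of these genes called, 72.5%, was near the background. By role, 2 SR proteins rose and 7 fell of 13, 9 hnRNPs rose and 7 fell of 21, and 1 kinase rose and 3 fell of 6. The median log2 fold change was -0.28 for the SR proteins, -0.10 for the hnRNPs and -0.33 for the kinases, against -0.05 for all genes tested. At a change of at least 2-fold by TMM, HNRNPC and TRA2B rose, against 15.5% of all genes. By the same rule SRSF6, SRSF8, SRSF5 and CLK4 fell, against 12.9% of all genes. In 12 of the 40 genes all CCT068127 libraries were above all DMSO libraries in CPM and in 16 they were below (33.3% and 36.0% of all genes), and 69.4% of all genes had groups that did not overlap.

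The split between higher and lower depended on the scaling, the unit and the filter. With library totals in place of TMM, 5 genes rose and 27 fell (22.1% and 48.3% of all genes), and on log2(TPM + 1), tested with limma, 5 rose and 28 fell (17.2% and 51.9% of 14394 genes). The median of all genes moved from -0.05 to -0.36 and -0.46 under these scalings, and the median of the 40 genes moved with it, from -0.25 to -0.56 and -0.67. In these 3 fits the median of the 40 genes minus that of all genes was -0.20, -0.20 and -0.21. The values for TMM and library totals had to agree, since that change of scaling shifts every gene of a library alike. The difference was -0.01 without a low-count filter, -0.55 on log2(TPM + 1) without a filter and -0.42 in DESeq2. Without a low-count filter, TMM-scaled counts gave 5 genes higher and 24 lower (18.9% and 21.6% of 29138 genes), and the medians were -0.50 for the 43 of the 45 genes in that fit and -0.49 for all genes. On log2(TPM + 0.1) there were 5 and 29 (17.0% and 50.7% of 14394 genes). On log2(TPM + 1) without a filter there were 4 and 26 (10.9% and 26.4% of 27872 genes), with medians of -0.59 for the 43 of the 45 genes in that fit and -0.04 for all genes. In DESeq2, run on 21916 genes, 41 of the 45 among them, the medians were -0.27 and 0.15. In the TMM fit and in all 17 tested alternatives, 18 of the 40 genes were called in 1 direction, against 39.0% of all genes. HNRNPC, HNRNPL, SRSF4 and TRA2B were higher in every one of these fits (14.2% of all genes were), and 14 genes were lower (24.7% of all genes): SRSF1, SRSF3, SRSF5, SRSF6, SRSF8, TRA2A, HNRNPA1, HNRNPD, HNRNPDL, HNRNPLL, HNRNPU, HNRNPUL2, CLK2 and CLK4. HNRNPC, HNRNPL, SRSF4 and TRA2B were at 0.85, 0.5, 0.42 and 0.79 with library totals. On log2(TPM + 1) they were at 0.69, 0.32, 0.25 and 0.56, so neither scale gave a 2-fold rise. HNRNPA1, SRSF3, SRSF1 and CLK2 were at -1.26, -1.17, -1.05 and -1.02 with library totals, past 2-fold there and not by TMM. The share of all genes past 2-fold with library totals was not computed.

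**Figure D1:**
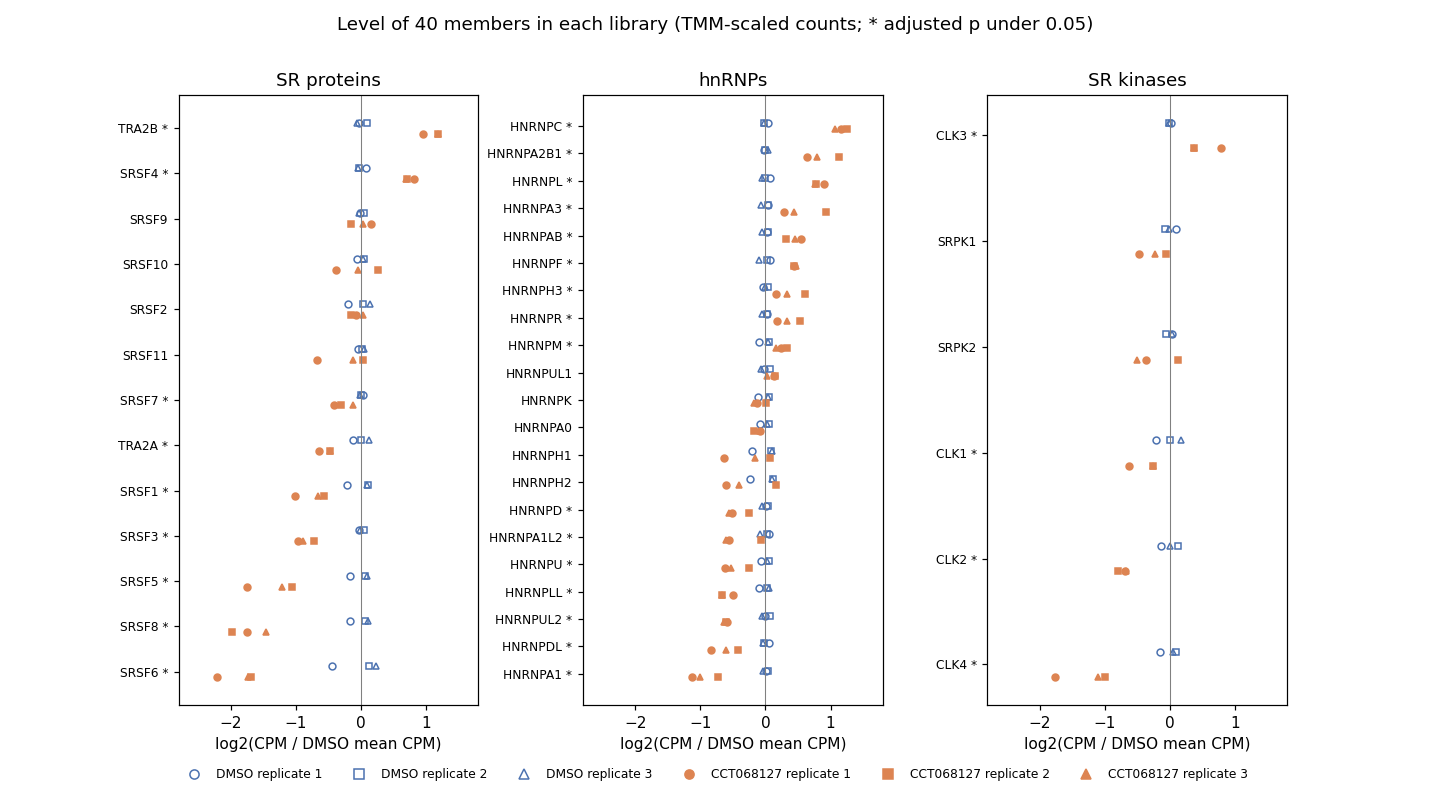
Level of the 40 tested genes in each library. The x axis is the log2 ratio of TMM-scaled CPM to the DMSO mean of that gene, open blue symbols are the 3 DMSO libraries, filled orange symbols the 3 CCT068127 libraries, and an asterisk marks an adjusted p under 0.05; SRSF6 lies farthest to the left and HNRNPC, HNRNPA2B1 and TRA2B farthest to the right, while HNRNPAB, HNRNPF, HNRNPH3, HNRNPR and HNRNPM, to the right on this scale, have fold changes below 0 on log2(TPM + 1).

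**Figure D2:**
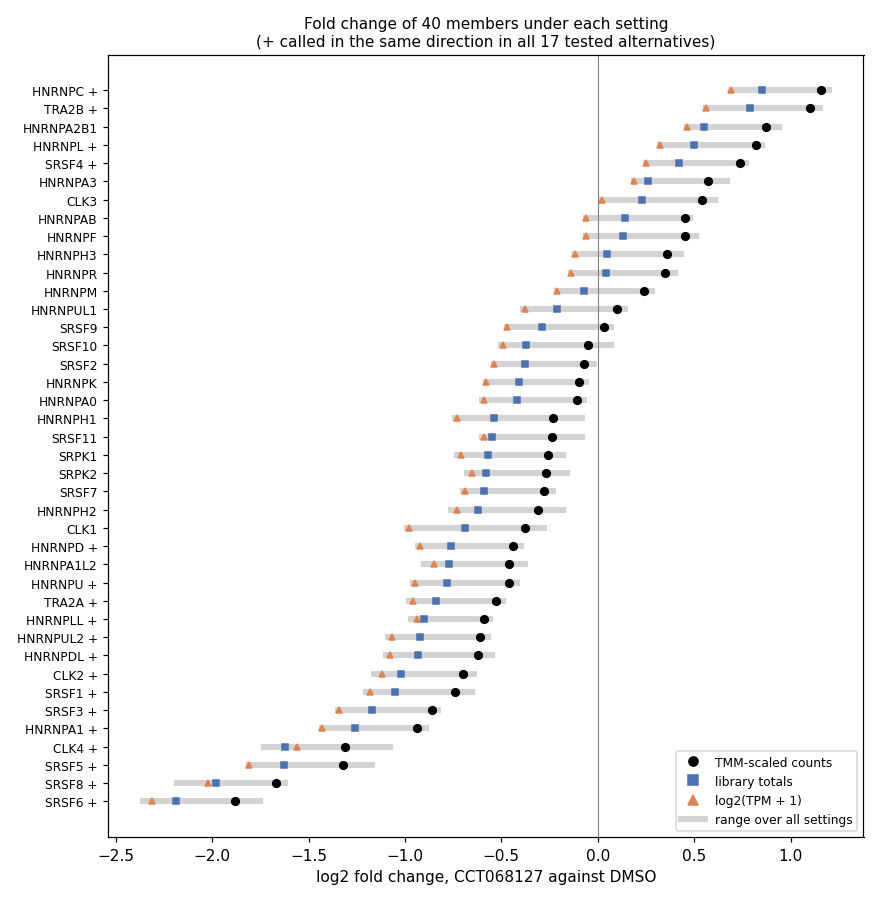
Log2 fold change, CCT068127 against DMSO, of each tested gene under 3 scalings (symbols) and its range over all settings (grey bar). Genes marked with a plus were called in the same direction in all 17 tested alternatives; SRSF6 lies between -2.36 and -1.75 in the tested alternatives, and HNRNPAB, HNRNPF, HNRNPH3, HNRNPR, HNRNPM, HNRNPUL1 and SRSF9 cross 0 between scalings.

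Promoter sequences were looked up for genes on either side of the comparison. RefSeq entries (GRCh38.p14, 250 bases before to 50 after a transcription start) were matched for 41 of the 45 genes, not for HNRNPA1, HNRNPCL3, SRSF2 or TRA2A. The 150 bases upstream of a start are shown for SRSF6, SRSF3 and SRSF8, which fell, and for HNRNPL, which rose, because at most 9 of these 150 bases lie in an exon of GENCODE release 29. They are read 5′ to 3′ on the strand of the gene, and capitals mark the motifs CCAAT (or ATTGG, its other strand) and TATAAA.
SRSF6 (chr20:43457746-43457895, plus strand): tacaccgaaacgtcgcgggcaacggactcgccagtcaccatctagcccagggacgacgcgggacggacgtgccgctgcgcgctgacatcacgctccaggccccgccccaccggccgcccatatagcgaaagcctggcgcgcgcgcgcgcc
SRSF3 (chr6:36594212-36594361, plus strand): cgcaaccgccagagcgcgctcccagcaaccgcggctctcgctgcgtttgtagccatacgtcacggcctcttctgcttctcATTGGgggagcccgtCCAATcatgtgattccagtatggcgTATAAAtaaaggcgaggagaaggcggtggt
SRSF8 (chr11:95066727-95066876, plus strand): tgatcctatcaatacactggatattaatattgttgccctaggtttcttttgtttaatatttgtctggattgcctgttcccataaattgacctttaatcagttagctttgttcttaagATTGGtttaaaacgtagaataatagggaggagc
HNRNPL (chr19:38852348-38852497, minus strand): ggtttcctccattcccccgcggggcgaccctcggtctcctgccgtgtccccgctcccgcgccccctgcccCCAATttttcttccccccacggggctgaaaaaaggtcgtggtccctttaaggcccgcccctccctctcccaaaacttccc
The SRSF6 stretch held none of the 5 motifs searched, and SRSF3, which also fell, held CCAAT on both strands and a TATA box. The CCAAT motif, whose matches may overlap other motifs, occurred on either strand in 23 of 56 promoter entries of tested genes (41.1%), against 34.6% of 35116 promoters of the same length. By call, it was in 11 of 17 entries of genes that rose, 7 of 19 of genes that fell and 5 of 20 of genes that did not pass. These calls are those by TMM. The genes that rose include HNRNPAB, HNRNPF, HNRNPH3, HNRNPR, HNRNPM, HNRNPA3 and CLK3, whose rise was not called with library totals or on log2(TPM + 1). CACGTG, an E-box, was in 10 of 56 entries (17.9%), against 7.26% of all promoters, and these 10 included 3 of the entries of genes that rose and 5 of those of genes that fell. TATAAA was in 12.5% of entries against 11.5%, and CCGGAAG, an ETS motif, in 10.7% against 10.3%. TGACGTCA, a cAMP response element, was in 0 of the 56 entries and in 1.85% of all promoters. Entries of 1 gene can overlap, so these shares describe the windows and are not independent counts.

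Among the SR proteins, SRSF6, SRSF8 and SRSF5 fell most, and TRA2B and SRSF4 rose. SRSF6, also called SRp55 and located at chr20:43457928-43464247 on the plus strand (GRCh38, GENCODE release 29), had 186, 275 and 297 CPM (counts relative to the TMM-scaled library total) in DMSO replicates 1 to 3 and 54.4, 78.3 and 75.5 in CCT068127 replicates 1 to 3. The lowest DMSO library, replicate 1, was still above every CCT068127 library, and the level fell by 1.88 ± 0.20 (SE) on the log2 scale, which is 3.68-fold lower (adjusted p = 2.01e-05). SRSF8, a copy of SRSF2, had 47.9, 56.4 and 58.1 CPM in DMSO and 16.1, 13.7 and 19.6 CPM in CCT068127. Its groups did not overlap, and it fell 3.18-fold (log2 fold change -1.67 ± 0.15, adjusted p = 4.05e-06). SRSF5, also called SRp40, had 413, 482 and 495 CPM in DMSO and 138, 223 and 199 CPM in CCT068127, again without overlap. It fell 2.5-fold (log2 fold change -1.32 ± 0.16, adjusted p = 4.64e-05).

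SRSF3, the smallest SR protein and one that also acts in mRNA export, had 244, 257 and 247 CPM in DMSO and 128, 151 and 135 CPM in CCT068127. The 3 treated libraries all lay below the 3 controls, a 1.82-fold fall (log2 fold change -0.86 ± 0.10, adjusted p = 2.55e-05). SRSF1, the founding member of the family and a splicing oncoprotein, had 217, 270 and 267 CPM in DMSO, with replicate 1 the lowest, and 125, 170 and 159 CPM in CCT068127. Its groups did not overlap either, and it fell 1.67-fold (log2 fold change -0.74 ± 0.14, adjusted p = 0.000697). SRSF7, an adaptor for mRNA export, fell by 0.28 on the log2 scale with an adjusted p of 0.0361, and this call was lost without any one of DMSO replicates 1, 2 and 3 or CCT068127 replicate 1 (adjusted p from 0.0549 to 0.0728).

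SRSF4, also called SRp75, had 182, 169 and 168 CPM in DMSO and 304, 283 and 278 CPM in CCT068127. Every treated library was above every control, and SRSF4 rose 1.67-fold (log2 fold change 0.74 ± 0.09, adjusted p = 5.13e-05). In TPM, SRSF4 stood at 172, 157 and 159 in DMSO and 199, 192 and 189 in CCT068127, and SRSF6 at 90.5, 132 and 145 and 18.1, 27.2 and 25.8. The TPM ratio of SRSF4 to SRSF6 was thus 1.1 to 1.9 in DMSO and 7.07 to 11.0 in CCT068127. This pair joins an SR protein that rose to the one that fell most, so its separation follows from that choice.

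The TRA2 proteins, which bind GAA-rich enhancers, moved apart. TRA2B had 91.4, 100 and 90.3 CPM in DMSO and 182, 212 and 214 CPM in CCT068127, with no overlap. It rose 2.15-fold (log2 fold change 1.10 ± 0.10, adjusted p = 6.16e-06). TRA2A, its paralog, had 43.8, 47.9 and 51.8 CPM in DMSO and 30.6, 34.3 and 34.3 CPM in CCT068127. It fell 1.45-fold without overlap (log2 fold change -0.53 ± 0.12, adjusted p = 0.00232). The TPM ratio of TRA2B to TRA2A was 1.42 to 1.66 in the DMSO libraries and 4.38 to 4.76 in the CCT068127 libraries.

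SRSF9, SRSF2, SRSF10 and SRSF11 did not pass the test. SRSF9 had 159, 165 and 157 CPM in DMSO and 179, 144 and 164 CPM in CCT068127, with overlapping groups and a log2 fold change of 0.03 ± 0.10, which became -0.29 with library totals and -0.47 on log2(TPM + 1), both past the threshold on the lower side. SRSF11, a factor known to interact with U2AF, had 217, 227 and 231 CPM in DMSO and 141, 230 and 207 CPM in CCT068127. CCT068127 replicate 2 was the highest treated library for SRSF11 and lay within the DMSO range. Its log2 fold change was -0.24 ± 0.15, and without that library it was -0.40 with an adjusted p of 0.0396. The fall of SRSF11 did not hinge on that library alone. Scaling by library totals put it at -0.55, log2(TPM + 1) at -0.59 and the fit that kept low-count genes at -0.47. Each of these values passed the threshold. SRSF2 and SRSF10 had log2 fold changes of -0.07 and -0.05 by TMM. Both were called lower with library totals (-0.38, adjusted p = 0.0123, and -0.37, adjusted p = 0.0415) and on log2(TPM + 1) (-0.54 and -0.49). Against DMSO replicate 3 alone, SRSF2 was at -0.24.

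Ranked by TPM, SRSF5 was first among the SR proteins in each DMSO library, with 505, 576 and 610.2 TPM, or 25.2% to 27.5% of their summed level. In CCT068127 it had 119.6, 192 and 178 TPM and ranks 4, 2 and 3. SRSF9 was second in DMSO (314, 318 and 309 TPM) and first in every CCT068127 library (245, 203 and 231 TPM), although its own TPM was lower there. The summed level of the 14 SR proteins was 2127.7 ± 110 TPM (SD, n = 3) in DMSO and 1233.8 ± 86 TPM (SD, n = 3) in CCT068127, or 58% of DMSO, beside a median change of all genes of -0.46 on the log2(TPM + 1) scale. In TPM 11 of the 13 tested SR proteins were lower and 2 (SRSF4 and TRA2B) higher in all CCT068127 libraries than in all DMSO libraries, against 57.5% and 18.7% of all 13597 tested genes.

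Among the hnRNPs, HNRNPC, HNRNPL and HNRNPA2B1 rose and HNRNPA1 fell most. HNRNPC, located at chr14:21209136-21269494 on the minus strand, binds uridine tracts and packages nascent transcripts. It had 568, 546 and 541 CPM in DMSO and 1239, 1316 and 1157 CPM in CCT068127. The groups did not overlap, and HNRNPC rose 2.24-fold (log2 fold change 1.16 ± 0.09, adjusted p = 1.63e-06). HNRNPL, which binds CA repeats, had 271, 257 and 249 CPM in DMSO and 485, 444 and 439 CPM in CCT068127. It rose 1.76-fold without overlap (log2 fold change 0.82 ± 0.09, adjusted p = 2.42e-05).

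HNRNPLL, the paralog of HNRNPL known from CD45 splicing in lymphocytes, moved the other way, with 36.6, 39.9 and 40.8 CPM in DMSO and 27.7, 24.6 and 24.6 CPM in CCT068127. It fell 1.51-fold, and the groups did not overlap (log2 fold change -0.59 ± 0.12, adjusted p = 0.00115). The TPM ratio of HNRNPL to HNRNPLL was 7.5 to 8.73 in DMSO and 18.9 to 20.4 in CCT068127.

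HNRNPA1, located at chr12:54280193-54287088 on the plus strand, silences exons and binds UAG motifs. It had 1078, 1099 and 1040 CPM in DMSO and 493, 647 and 536 CPM in CCT068127. All treated libraries were below all controls, a 1.92-fold fall (log2 fold change -0.94 ± 0.11, adjusted p = 3.35e-05). HNRNPA2B1, its close relative, had 512, 514 and 531 CPM in DMSO and 804, 1140 and 900 CPM in CCT068127, where replicate 2 was the highest. It rose 1.82-fold without overlap (log2 fold change 0.87 ± 0.13, adjusted p = 0.000141). On log2(TPM + 1) without a filter the rise was 0.46 and did not pass (limma adjusted p = 0.0545). HNRNPA2B1 overlaps CBX3 and NFE2L3 on the opposite strand.

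HNRNPA3, a further relative of HNRNPA1, had 270, 269 and 250 CPM in DMSO and 321, 503 and 358 CPM in CCT068127. Replicate 2 was again the highest treated library, and the groups did not overlap. It rose 1.49-fold (log2 fold change 0.57 ± 0.15, adjusted p = 0.00613), but the change was 0.26 with library totals and 0.19 on log2(TPM + 1), neither past the threshold. Without CCT068127 replicate 2 the rise was 0.34 (adjusted p = 0.00807). HNRNPA1L2, a retrocopy of HNRNPA1, fell with a log2 fold change of -0.46 (adjusted p = 0.0151), a call lost without CCT068127 replicate 3 (adjusted p = 0.0796). Reads of such near-identical copies are divided between them by estimation, so its value is uncertain. With HNRNPA1L2 and the pseudogenes HNRNPA1P10 and HNRNPA1P33 added, the HNRNPA1 level was 1360.3, 1367.0 and 1330.8 TPM in DMSO and 432.1, 610.2 and 476.1 TPM in CCT068127.

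HNRNPU, HNRNPUL2, HNRNPDL and HNRNPD fell. HNRNPU, a scaffold protein that binds chromatin and RNA, had 449, 487 and 477 CPM in DMSO and 307, 394 and 327 CPM in CCT068127 (log2 fold change -0.46 ± 0.11, adjusted p = 0.00347). HNRNPUL2 had 184, 194 and 179 CPM in DMSO and 123, 122 and 120 CPM in CCT068127 (log2 fold change -0.61 ± 0.09, adjusted p = 0.000191). Neither gene's groups overlapped, whereas HNRNPUL1 did not pass, with a log2 fold change of 0.10 that became -0.38 on log2(TPM + 1). HNRNPDL had 269, 257 and 253 CPM in DMSO and 146, 194 and 171 CPM in CCT068127 (log2 fold change -0.62 ± 0.11, adjusted p = 0.000707). HNRNPD, also known as AUF1 and as a binder of AU-rich elements, fell with a log2 fold change of -0.44. For both genes every treated library was below every control.

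For 5 further hnRNPs, HNRNPAB, HNRNPF, HNRNPH3, HNRNPR and HNRNPM, a rise was called on TMM-scaled counts and not with library totals or on log2(TPM + 1). HNRNPAB, which resembles HNRNPD, had 181, 182 and 171 CPM in DMSO and 261, 222 and 244 CPM in CCT068127 (log2 fold change 0.45 ± 0.10, adjusted p = 0.00205). HNRNPF, which binds G tracts, had 308, 299 and 276 CPM in DMSO and 400, 397 and 407 CPM in CCT068127 (log2 fold change 0.45 ± 0.09, adjusted p = 0.0013). The changes were 0.14 and 0.13 with library totals and -0.06 for both on log2(TPM + 1), and none of these passed. HNRNPH3, HNRNPR and HNRNPM had log2 fold changes of 0.36, 0.35 and 0.24 and were at -0.12, -0.14 and -0.21 on log2(TPM + 1). On log2(TPM + 0.1) HNRNPM was called lower (-0.21, limma adjusted p = 0.0498). The call of its rise by TMM (adjusted p = 0.0443) was lost when any one library was left out (adjusted p from 0.0659 to 0.182). That of HNRNPH3 (adjusted p = 0.0191) was lost without DMSO replicate 1, 2 or 3 or CCT068127 replicate 2 or 3, with adjusted p from 0.0509 to 0.0731. That of HNRNPR (adjusted p = 0.016) was lost without DMSO replicate 2 or 3 or CCT068127 replicate 3, with adjusted p from 0.0536 to 0.0862. Without CCT068127 replicate 2, HNRNPH3 was at 0.22 and HNRNPR at 0.23 (adjusted p = 0.0444). HNRNPA0, HNRNPH1, HNRNPH2 and HNRNPK did not pass, with log2 fold changes from -0.31 to -0.10 by TMM. All 4 were called lower with library totals (-0.62 to -0.41), without a low-count filter (-0.54 to -0.33) and on log2(TPM + 1) (-0.73 to -0.58). Without CCT068127 replicate 2, HNRNPH1 (-0.41, adjusted p = 0.0434) and HNRNPH2 (-0.52, adjusted p = 0.0137) were lower by TMM, and HNRNPH2 also without DMSO replicate 1 (-0.46, adjusted p = 0.0361).

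By TPM, HNRNPA1 was the most abundant of the 45 genes in each DMSO library (1317, 1325 and 1282 TPM) and at rank 3 among the hnRNPs in each CCT068127 library (419, 589.9 and 461 TPM). HNRNPC had 497, 468 and 470.3 TPM in DMSO and was first in every CCT068127 library (752, 837 and 727 TPM), with HNRNPA2B1 second there (521, 767 and 585 TPM). HNRNPK, a KH-domain protein of the same order of abundance, had 435, 479 and 483 TPM in DMSO and 296, 339.6 and 298 TPM in CCT068127. The TPM ratio of HNRNPC to HNRNPA1 was 0.353 to 0.377 in DMSO and 1.42 to 1.79 in CCT068127. Such a ratio within a library does not depend on the scaling between libraries. However, this pair joins the hnRNP that rose most by TMM to the one that fell most, so its separation follows from that choice. The summed level of the 25 hnRNPs was 5196.3 ± 39.5 TPM (SD, n = 3) in DMSO and 4205.3 ± 441.6 TPM (SD, n = 3) in CCT068127, or 80.9% of DMSO. HNRNPA1 alone made up 24.8% to 25.5% of this sum in DMSO and 10.8% to 12.5% in CCT068127. Its mean went from 1308 to 490 TPM, which was most of the fall of the sum. The median change of all genes on the log2(TPM + 1) scale was -0.46. For the hnRNP sum, CCT068127 replicate 2 was the highest treated library at 4703.9 TPM.

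**Figure D3:**
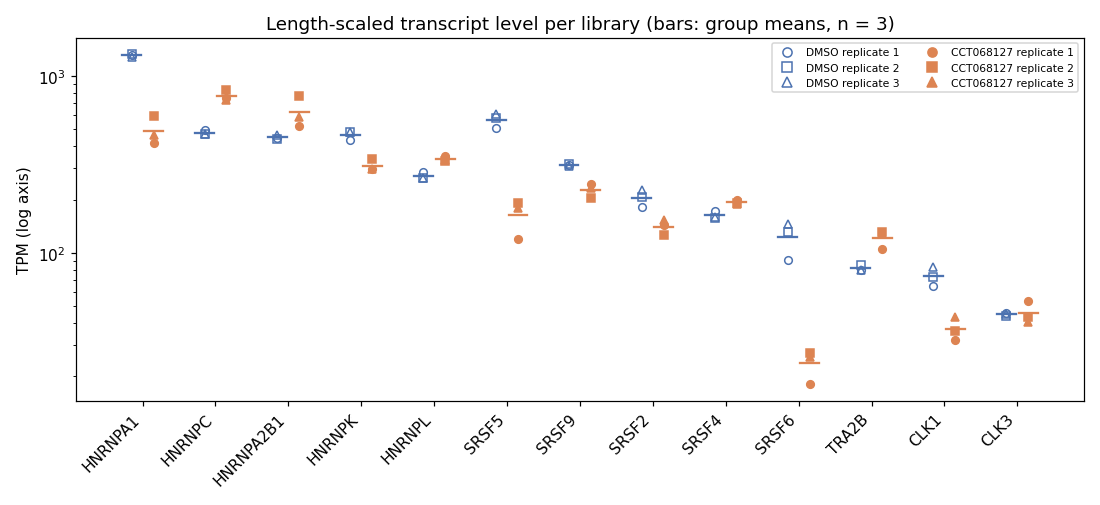
Length-scaled level (TPM, log axis) of 13 genes in each library, with a bar at each group's mean (n = 3). HNRNPA1 is highest in DMSO and lies below HNRNPC and HNRNPA2B1 in CCT068127, and SRSF5 drops below SRSF9 in every treated library.

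Of the 6 kinases, CLK4, CLK2 and CLK1 fell and CLK3 rose. CLK4 had 17.3, 20.7 and 19.9 CPM in DMSO and 5.71, 9.71 and 8.99 CPM in CCT068127, with no overlap. It fell 2.48-fold (log2 fold change -1.31 ± 0.20, adjusted p = 0.000191). CLK2 had 29.8, 35.7 and 32.6 CPM in DMSO and 20.2, 18.9 and 20.6 CPM in CCT068127. It fell 1.63-fold, again with no overlap (log2 fold change -0.70 ± 0.13, adjusted p = 0.000647). CLK1, whose own transcript retains introns in unstressed cells, had 58.7, 68.3 and 76.6 CPM in DMSO and 43.8, 56.6 and 56.6 CPM in CCT068127. The highest treated library was just below the lowest control. The fall of CLK1 was 1.3-fold (log2 fold change -0.38 ± 0.14, adjusted p = 0.0337), and the call was lost without DMSO replicate 2 (adjusted p = 0.0647), DMSO replicate 3 (0.0925) or CCT068127 replicate 1 (0.109), with DESeq2 size factors (0.0519) and in limma-voom (0.0706).

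CLK3 had 41.4, 40.6 and 40.6 CPM in DMSO and 70.5, 52.6 and 53 CPM in CCT068127, where replicate 1 was the highest. It rose 1.45-fold (log2 fold change 0.54 ± 0.13, adjusted p = 0.00338), but the change was 0.23 with library totals and 0.02 on log2(TPM + 1), neither past the threshold. Without CCT068127 replicate 1 the rise was 0.34 (adjusted p = 0.0139). The TPM ratio of CLK3 to CLK1 was 0.542 to 0.7 in DMSO and 0.942 to 1.66 in CCT068127. Here too the pair joins a kinase called higher by TMM to one called lower, so its separation follows from that choice.

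SRPK1, the main cytoplasmic SR kinase, had 85.7, 76.2 and 79.9 CPM in DMSO and 58.3, 77.1 and 69.1 CPM in CCT068127. SRPK2 had 42, 39.5 and 42.1 CPM in DMSO and 32, 45.1 and 29.1 CPM in CCT068127. Their groups overlapped through CCT068127 replicate 2, and neither passed (log2 fold change -0.26 ± 0.12, adjusted p = 0.0728, for SRPK1 and -0.27 ± 0.15, adjusted p = 0.127, for SRPK2). Without that library both were lower (-0.37, adjusted p = 0.0152, and -0.45, adjusted p = 0.00562), which took the kinases called lower from 3 to 5. Both were also lower with library totals (-0.57 and -0.58), without a low-count filter (-0.50 and -0.51) and on log2(TPM + 1) (-0.71 and -0.65). In DESeq2, SRPK1 was called lower as well (-0.30, adjusted p = 0.0335). The summed level of the 6 kinases was 230.3 ± 10.3 TPM (SD, n = 3) in DMSO and 140.7 ± 4.4 TPM (SD, n = 3) in CCT068127, or 61.1% of DMSO. Beside it, the median change of all genes was -0.46 on the log2(TPM + 1) scale.

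A gene's count divided by its TPM is proportional to the mean length of the transcripts its reads were assigned to, so a change in this ratio can mark a shift between long and short transcripts of that gene. It could be tested for 39 of the 45 genes, and 1 became longer and 4 shorter by limma at an adjusted p of 0.05, against 4.15% and 4.3% of 9108 genes tested (8.45% in either direction). SRSF11 changed most. Relative to its DMSO mean, its implied length was 98.3%, 99.9% and 102% in DMSO and 88.5%, 91.6% and 92% in CCT068127 (log2 change -0.141, adjusted p = 0.0282). HNRNPA3 was at 94.1%, 91.3% and 91% of its DMSO mean in CCT068127 (adjusted p = 0.0163). HNRNPA2B1 was at 93%, 93% and 96% (adjusted p = 0.0325). The other pair were HNRNPM, shorter by 2.02% (adjusted p = 0.0237), and HNRNPF, longer by 1.37% (adjusted p = 0.0158).

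In each of these 5 genes the groups did not overlap, which adds little, since the genes were picked by the test. The share of all genes without overlap in implied length was not computed. DMSO replicate 3, the shallow DMSO library, was at 102% for SRSF11, 99.5% for HNRNPA3 and 100% for HNRNPA2B1. None of the 5 calls held when DMSO replicate 1, 2 or 3 was left out, where the adjusted p ranged from 0.0591 to 0.144, while the log2 change of SRSF11, for one, was then -0.128 to -0.154. Leaving out CCT068127 libraries ended the call of HNRNPA2B1 (replicate 1 or 2), HNRNPM (replicate 1 or 3) and SRSF11 (replicate 2 or 3), with adjusted p from 0.0541 to 0.0738. TRA2B, at 105%, 102% and 106% of its DMSO mean in CCT068127, and CLK1, at 104%, 124% and 103%, did not pass. Without CCT068127 replicate 2, TRA2B passed as longer (log2 change 0.076, adjusted p = 0.0147). SRSF6 then passed as longer too (0.029, adjusted p = 0.0361) and SRSF5 as shorter (-0.032, adjusted p = 0.0471). Without CCT068127 replicate 3, SRSF3 passed as longer (0.024, adjusted p = 0.0458). In HNRNPA0, an intronless gene, the implied length was 99.9% to 100% in every library. GENCODE release 29 lists a transcript subject to nonsense-mediated decay for 31 of the 40 tested genes (77.5%), including all 13 tested SR proteins, against 43.3% of 12087 tested protein-coding genes. It lists a retained-intron transcript for 29 of them (72.5%), against 58.1%. The 40 tested genes had a median of 12 listed transcripts, against 8 for the tested protein-coding genes, and neither share was adjusted for this number. The deposited values are per gene, so the share of such transcripts was not measured.

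**Figure D4:**
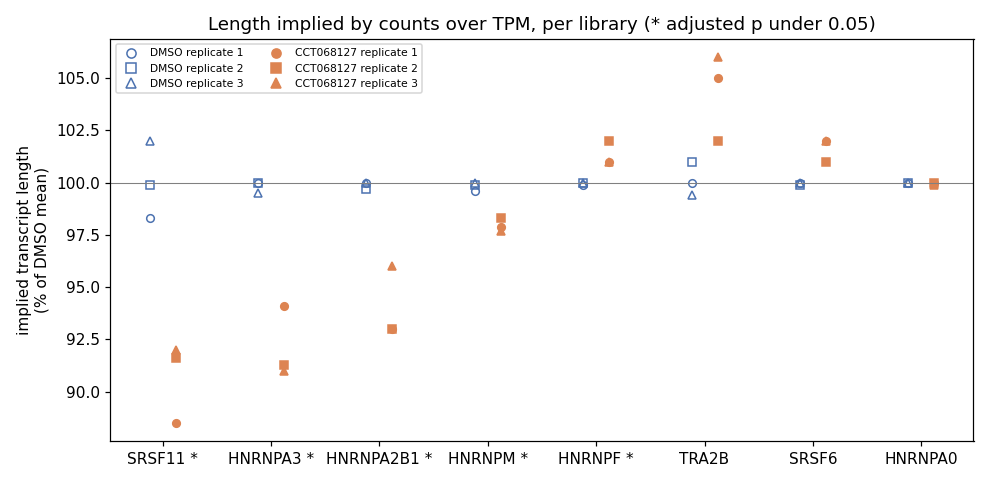
Transcript length implied by counts over TPM, as a percentage of each gene's DMSO mean, in each library for the 5 genes with an adjusted p under 0.05 (asterisk) and for TRA2B, SRSF6 and HNRNPA0. SRSF11, HNRNPA3 and HNRNPA2B1 lie between 88.5% and 96% in the CCT068127 libraries, and HNRNPA0 lies at 99.9% to 100%.

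Other splicing genes were set beside these families in 6 lists. Across all genes 31.9% rose and 32.8% fell by TMM, 22.1% and 48.3% with library totals and 17.2% and 51.9% on log2(TPM + 1), and the medians were -0.05, -0.36 and -0.46. In the core spliceosome, 26 of 39 tested genes rose and 2 fell, with a median log2 fold change of 0.51. SF3B4 and SF3B6, of the SF3B complex that recognises the branch point, rose with log2 fold changes of 1.93 and 1.31. SNRPD2, a core Sm protein, rose by 1.51, and SF1, the first branch point binder, fell by 0.58 on the log2 scale. The spliceosome list had 19 genes higher and 7 lower with library totals, at a median of 0.19. On log2(TPM + 1) it had 16 and 13, at a median of 0.01.

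Among the hnRNP proteins under other symbols, 2 of 8 rose and 4 fell (median -0.25), and with library totals 1 and 6 (median -0.56). PCBP2, a relative of HNRNPK that binds poly(C), had a log2 fold change of -1.44, RBMX, also called hnRNP G, one of -1.18, and CIRBP, a cold-inducible protein, one of -0.66. RALY, a relative of HNRNPC, rose by 0.94. Only 1 gene of this list rose when DMSO replicate 2 or 3 or CCT068127 replicate 1 or 3 was left out. Of the other splicing regulators, 5 of 23 rose and 10 fell (median -0.19), and with library totals 3 and 15 (median -0.50). Here QKI was at -1.08, RBFOX2 at -0.85, RBM5 at -0.80 and KHSRP at 1.04.

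Proteins with an RS domain outside the SRSF family showed 4 of 18 higher and 3 lower (median -0.07), and with library totals 2 and 7 (median -0.38). Without CCT068127 replicate 2, the number lower was 6. RNPS1, a component of the exon junction complex, and SCAF4, which binds the tail of RNA polymerase II, rose by 0.74 and 0.87, and LUC7L, a U1-associated protein, fell by 1.01 on the log2 scale. LUC7L2, its paralog, was at 0.50 by TMM but at 0.19 and 0.01 with library totals and on log2(TPM + 1), neither past the threshold. Of the other kinases, phosphatases and importins of SR proteins, 3 of 12 rose and 3 fell (median -0.05), and with library totals 1 and 6 (median -0.36). DYRK1B, a kinase of the family that also phosphorylates splicing factors, fell by 2.48 on the log2 scale. CDK11B was at 0.63 and TNPO1, an import receptor, at 0.59 by TMM, and at 0.12 and 0.23 on log2(TPM + 1), neither past the threshold. DYRK1A was at 0.48 by TMM (adjusted p = 0.0171) and at -0.27 on log2(TPM + 1), and its call was lost without DMSO replicate 2 (adjusted p = 0.0571), CCT068127 replicate 2 (0.0542, at 0.31) or CCT068127 replicate 3 (0.0753). In the exon junction complex and nonsense-mediated decay list, 4 of 15 rose and 5 fell (median -0.14), and with library totals 2 and 9 (median -0.45). SMG6 was at -0.73, SMG1 at -0.53 and CASC3 at -0.36. Without CCT068127 replicate 3, the number lower was 3 and CASC3 did not pass (adjusted p = 0.0545).

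**Figure D5:**
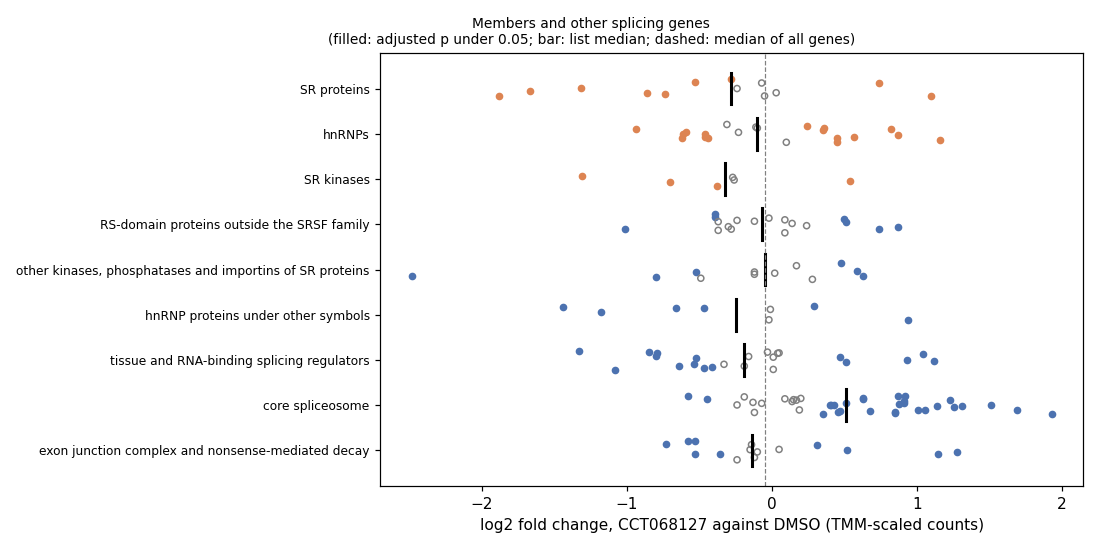
Log2 fold change, CCT068127 against DMSO, of each tested gene of the 3 families (orange) and of 6 other lists of splicing genes (blue), on TMM-scaled counts. Filled points have an adjusted p under 0.05, open grey points do not, bars are list medians and the dashed line is the median of all genes (-0.05); the core spliceosome median is at 0.51 by TMM and at 0.01 on log2(TPM + 1).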

How the data were processed

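Per the labels' protocols, poly(A) RNA was isolated for the 6 libraries and read on a NovaSeq. The authors deposited estimated counts per gene, rounded to whole numbers, and TPM values. The submitters' processing notes list RSEM, Bowtie and hg38, and the annotation and strandedness are not given in the sources used here. Genes that passed filterByExpr (13597) were tested with edgeR 4.0.16 in R 4.3.3 (TMM, robust quasi-likelihood, two-sided, Benjamini-Hochberg, threshold 0.05). The filter asked, in at least 3 libraries, for the CPM that equals 10 counts at the median library size. The raw count this required was therefore below 10 in CCT068127 replicate 2 and far above 10 in DMSO replicates 1 and 2. Standard errors (SE) came from the F statistic. Implied lengths were tested with limma 3.58.1 on log2(count/TPM), with a lowess trend on length removed in each library, for genes with at least 20 counts and 1 TPM in every library. Scripts were tested on simulated data. The upper limit for 0 counts, set at 3 counts, lay between 0.0073 and 1.53 CPM over the libraries and covers counting error only. DESeq2 1.42.0, other scalings, filters and units, a replicate block and leaving out each library were the alternatives. Named genes were both TRA2 genes, all kinases, and among SRSF genes and hnRNPs the 5 higher and 5 lower with the smallest adjusted p, the 3 with the highest TPM and those with a changed implied length, and from each other list up to 3 genes in its commoner direction and 1 in the other. Genes outside this rule (among them SRSF7, SRSF2, SRSF10, HNRNPD, HNRNPH3 and HNRNPR) were named to account for every member. The members and lists were chosen with earlier results of these data known.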

Additional observations from a re-analysis of the deposited data

How the results depend on the processing

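Counts of the 40 genes moved by over 1.5 times with library totals, without a low-count filter and on TPM, the last a change of unit, filter and test together. With library totals, 5 of the 40 genes were higher and 27 lower (median -0.56). By role, 11 SR proteins were lower (median -0.59), 3 hnRNPs higher and 11 lower (median -0.41), and 0 kinases higher and 5 lower (median -0.64), while HNRNPM was at -0.07 and SRSF9 at -0.29. Without a low-count filter, 5 genes were higher and 24 lower (median -0.50, all genes -0.49), with 3 hnRNPs higher and 11 lower (-0.34) and 0 kinases higher and 5 lower (-0.56). On log2(TPM + 1) with a filter of 1 TPM, 5 were higher and 28 lower (-0.67), with 11 SR proteins lower (-0.69), 3 hnRNPs higher and 12 lower (-0.58) and 0 kinases higher and 5 lower (-0.84). On log2(TPM + 0.1), 5 were higher and 29 lower (-0.69), with 11 SR proteins lower (-0.70), 3 hnRNPs higher and 13 lower (-0.58) and 0 kinases higher and 5 lower (-0.86). On log2(TPM + 1) without a filter, 4 were higher and 26 lower (-0.59, all genes -0.04), the SR protein median was -0.64, 2 hnRNPs were higher and 12 lower (-0.38) and 0 kinases higher and 5 lower (-0.84). In all 3 TPM settings HNRNPAB and HNRNPF were at -0.06, HNRNPH3 at -0.12, HNRNPR at -0.14, HNRNPM at -0.21 and SRSF9 at -0.47, HNRNPUL1 was at -0.38 or -0.39 and DYRK1A at -0.27 or -0.30. The cause was not tested. Leaving out each library gave 9 to 11 genes higher and 15 to 22 lower (median -0.39 to -0.17), 2 to 5 kinases lower, and 0 to 3 genes with a longer and 0 to 3 with a shorter implied length. Deviations from the group means correlated at 0.07, -0.03 and 0.08 between same-numbered libraries and at -0.10 to 0.05 between the others. With 3 libraries per group, these values cannot settle whether the replicate numbers pair the libraries. With the replicate number as a block, 11 genes were higher and 16 lower, HNRNPM (adjusted p = 0.0617) and SRSF7 (0.0527) did not pass, and 0 genes had a longer and 1 a shorter implied length. With the other scalings (DESeq2 size factors, upper quartile), DESeq2, limma-voom and thinning of the deep libraries, 12 genes were higher and 15 to 18 lower. The alternatives for the 6 other lists were chosen after seeing the data.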

Other observations

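HNRNPA1P10, a processed copy of HNRNPA1, was the only one of 4 hnRNP pseudogene symbols in the tables with enough reads to be tested. It had 3612, 4047 and 99 counts (8.75, 8.97 and 14.8 CPM) in DMSO and 0, 0 and 9 counts in CCT068127, a log2 fold change of -3.63 ± 0.65 (SE) with an adjusted p of 0.000899 by edgeR. Its level in the 2 deep DMSO libraries was lower than in DMSO replicate 3, and reads of HNRNPA1 and of this copy are divided by estimation. HNRNPA1P33 had 183, 168 and 1 counts in DMSO and 2, 1 and 0 in CCT068127. HNRNPA3P1 and HNRNPKP3 had at most 11 and 4 counts in any library. Of the members that were not tested, SRSF12 had 0.25, 0.2 and 0.18 TPM in DMSO and 0.43, 0 and 0.1 TPM in CCT068127, and HNRNPCL1 and HNRNPCL2 had at most 0.06 and 0.03 TPM in the deep DMSO libraries and 0 elsewhere.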
